A study of Mus musculus with 3 samples.

Results

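REV-ERB alpha and REV-ERB beta binding was described at the genes of 4 transcription factors that act on the D-box, a short DNA element of the circadian clock: Dbp, Tef, Hlf and Nfil3. The members are the ChIP-seq peaks whose centre lay in a fixed mm9 window at each gene: chr7:52940000-52986000 for Dbp, chr15:81605000-81685000 for Tef, chr11:90170000-90280000 for Hlf and chr13:53030000-53110000 for Nfil3. These windows held 25 of the 24461 REV-ERB alpha peaks and 28 of the 22097 REV-ERB beta peaks, 53 of 46558 in all. The windows were set by position and not by tags, but with earlier results of these data known.

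The libraries were made from the livers of male C57BL/6 mice aged 20 weeks, which carry no genetic change named in the labels. The mice had spent 3 days on a cycle of 12 hours of light and 12 hours of dark, and were taken at zeitgeber time 8, that is 8 hours after lights on. There was 1 library with an antibody against REV-ERB alpha, 1 with an antibody against REV-ERB beta and 1 of input chromatin, with no antibody, as the control. How many livers went into a library is not given in the sources used here. No value has a replicate error, and the intervals below cover counting error only.

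REV-ERB alpha and REV-ERB beta (genes Nr1d1 and Nr1d2) are nuclear receptors that repress transcription. They bind the hexamer AGGTCA behind an A/T-rich stretch, the RORE, where they compete with the activating ROR receptors. DBP, TEF and HLF are activators of the PAR bZIP family, which in liver drive rhythmic genes of drug and lipid metabolism. NFIL3 (E4BP4) is a bZIP repressor that binds the same D-box and peaks at the opposite time of day. Dbp is a classical target of the activators CLOCK and BMAL1 through E-boxes (CACGTG), and Nfil3 is a known RORE gene. Together the 4 genes are taken to link the E-box and RORE arms of the clock.

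The RORE and E-box letters in the promoters of the members are shown first, because they are the elements through which these arms are known to act. The sequences are RefSeq promoters of the GRCm38.p6 assembly, 250 bases before the annotated start (50 more bases after it were searched). All 4 genes matched by symbol, with 5 promoters in all, since Tef has 2 starts. The peaks are in mm9, so peaks and promoters were not placed on each other. Capitals mark a motif match. The first line is the strand of the Nfil3 promoter opposite to the gene, cut around its match to ANTAGGTCA, and the others follow the strand of the gene.
Nfil3, stretch with the RORE: gatgtgtgttAGTAGGTCAgttccgagcg
Nfil3, chr13:52981040-52981289, minus strand: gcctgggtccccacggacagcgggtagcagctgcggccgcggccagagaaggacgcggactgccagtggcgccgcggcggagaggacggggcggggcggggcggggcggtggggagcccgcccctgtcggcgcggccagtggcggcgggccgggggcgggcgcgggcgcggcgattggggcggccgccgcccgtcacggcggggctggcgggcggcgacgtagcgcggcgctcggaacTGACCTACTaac
Tef, upstream start, chr15:81802423-81802672, plus strand: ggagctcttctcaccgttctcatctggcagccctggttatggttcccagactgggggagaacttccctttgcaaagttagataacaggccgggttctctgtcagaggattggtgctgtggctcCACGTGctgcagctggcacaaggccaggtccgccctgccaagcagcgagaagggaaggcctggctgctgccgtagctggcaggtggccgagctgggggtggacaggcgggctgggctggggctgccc
Tef, downstream start, chr15:81811164-81811413, plus strand: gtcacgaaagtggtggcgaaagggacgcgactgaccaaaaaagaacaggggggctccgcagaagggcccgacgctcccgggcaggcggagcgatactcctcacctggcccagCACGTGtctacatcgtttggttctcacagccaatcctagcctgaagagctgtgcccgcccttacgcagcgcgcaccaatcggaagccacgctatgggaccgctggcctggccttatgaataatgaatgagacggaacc

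Of the members, Nfil3 alone had the hexamer AGGTCA in its promoter, and it had it within the longer letters TAGGTCA and ANTAGGTCA, on the opposite strand and from 12 to 4 bases before the start. These 3 nested motifs occurred on either strand in 16.3%, 2.61% and 0.661% of all 32851 promoters of the same length. Both Tef promoters held an E-box, CACGTG, at 127 to 122 and 138 to 133 bases before the start, against 7.15% of all promoters. The Dbp and Hlf promoters held none of the motifs searched. Only 250 bases before and 50 after the start were read, so elements elsewhere in these genes would be missed. No member promoter had either spelling of the D-box, TTATGTAA (0.938% of all promoters) or TTACGTAA (0.119%), or a direct repeat of AGGTCA with 2 bases between (0.00913%). Of 15 other clock genes, 12 had a promoter in the table. Arntl, which encodes the activator BMAL1 and is a known RORE gene, was the only one of the 12 with ANTAGGTCA. The hexamer AGGTCA without the longer letters was found in Clock, Nr1d2 and Per1. E-boxes were found in Bhlhe41, Ciart, Cry1 and Per1. TTATGTAA was found in Per3. A match is a description of letters and not of a bound site.

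REV-ERB peaks were dense at these genes and most numerous at Hlf and Tef. The windows span 316 kb and had 7.91 alpha and 8.86 beta peaks per 100 kb, against 0.958 and 0.912 per 100 kb over the whole lists, or 8.26 and 9.71 times as many. The Hlf window (110 kb) held 11 alpha and 14 beta peaks. The Tef window (80 kb) held 9 and 7, the Dbp window (46 kb) 2 and 4, and the Nfil3 window (80 kb) 3 and 3. Peaks cluster along the genome, so the counts were also set beside those in a window of the same width centred on a peak of the list, that peak included. The median count there was 4 alpha and 5 beta peaks at the width of Hlf, 4 and 4 at that of Tef and Nfil3, and 3 and 3 at that of Dbp. Hlf and Tef thus held more peaks than such windows, while Nfil3 held fewer and Dbp lay on both sides.

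**Figure D1:**
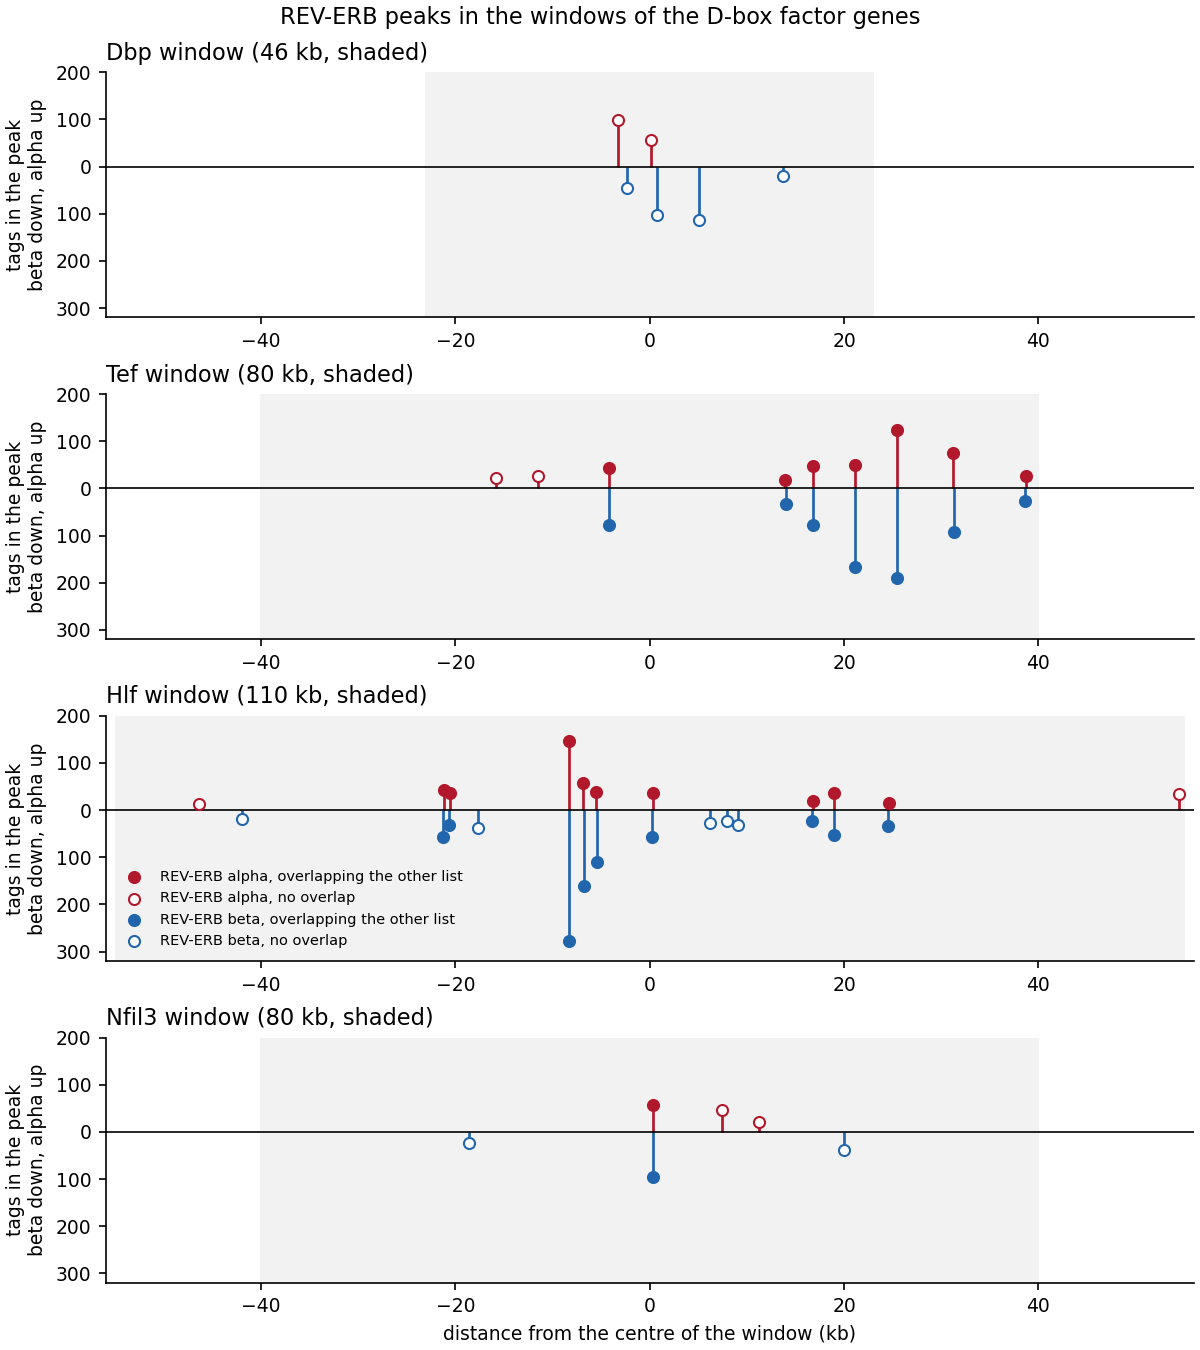
Tags in each peak (vertical axis, REV-ERB alpha upward and REV-ERB beta downward) against distance from the centre of the window in kb, with 1 panel per gene and the window shaded. Filled points overlap a peak of the other list and open points do not: all 6 points at Dbp are open, all 7 beta points at Tef are filled.

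About as many member peaks were shared between the receptors as in the whole lists, and the number per gene ran from 0 to 9 pairs. Peaks were called shared where the alpha and beta windows overlapped by at least 1 bp. Of the 25 alpha members 17 were shared, or 68.0% (exact Clopper-Pearson interval 46.5% to 85.1%), against 57.8% of all alpha peaks outside chromosome 8, which was left out because it holds 0 of the beta peaks used here. Of the 28 beta members the same 17 were shared, or 60.7% (40.6% to 78.5%), against 60.3% of all beta peaks. Tef contributed 7 pairs, Hlf 9, Nfil3 1 and Dbp 0. Whether either antibody also recognises the other receptor was not tested.

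The median member had more tags than the median peak of its list. Above the list median were 17 of 25 alpha members (68%) and 15 of 28 beta members (53.6%), the latter near an even split. The median alpha member had 39.0 tags (range 14 to 147) against 27 in the list, and the median beta member 48.5 tags (18 to 278) against 39. In the top 10% of its list by tags stood 4 of 25 alpha members, against 9.92% of all alpha peaks, and 5 of 28 beta members, against 9.93% of all beta peaks. Tall peaks are shared more often: above the list median, 77.9% of alpha and 80.6% of beta peaks had a partner. Among the members above it, 13 of 17 alpha and 12 of 15 beta peaks did. Dbp accounted for 2 of the unshared alpha peaks and for all 3 of the unshared beta peaks among these, and outside Dbp 13 of 15 and 12 of 12 were shared. Dbp was set aside here after its values had been seen.

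Dbp (gene ID 13170), a PAR bZIP activator, had peaks of both receptors, none of which overlapped. The alpha list had 2 peaks. The stronger, chr7:52959653-52959805, held 99 tags against 4 input tags and ranked 1001 in its list, and chr7:52963064-52963216 held 56 tags against 5. The beta list had 4 peaks. The strongest, chr7:52967929-52968139, held 114 tags against 6 input tags, followed by chr7:52963638-52963848 with 103 against 12, chr7:52960503-52960713 with 45 against 2 and, at the far end, a peak of 19 tags against 0. The 2 alpha centres lay 879 and 603 bp from the nearest beta centre, and the strongest beta peak lay 4894 bp from any alpha peak. These distances exceed the widest limit used for pairing, 500 bp between centres. With 0 of 2 alpha and 0 of 4 beta peaks shared, the exact intervals still reach 84.2% and 60.2%. The tags of each receptor at the peaks of the other were not measured, so a peak missing from a list is not shown to be unbound.

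The surroundings of 5 of the 6 Dbp peaks held more tags than the median of their list. In the 10000 bp around the alpha peaks there were 640 and 936 tags, against a list median of 203, and the second of these ranked 68 of 24461. Around the 3 tallest beta peaks there were 702, 776 and 489 tags, against a list median of 198, and around the lowest, with 19 tags, there were 151. The alpha peak with 936 tags around it held only 5.98% of them, and its tag density was 4.10 times that of its surroundings, close to the lowest value of the whole list, 4.0. The 10 kb areas of neighbouring Dbp peaks overlap, so these counts are not independent. In the GRCm38 gene table Dbp overlaps Sphk2 and has Car11 beside it, and no peak was assigned to a gene.

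Tef (gene ID 21685), a PAR bZIP activator, had most of its peaks in common between the receptors. All 7 of its beta peaks overlapped an alpha peak, and the 2 alpha peaks without a partner, with 22 and 27 tags, were at the low-coordinate end of the occupied stretch. Shared peaks held 88.7% of the alpha tags and 100% of the beta tags in the window. The same 3 pairs led by both receptors, in a different order. The tallest was chr15:81670329-81670481 for alpha (124 tags, 2 input tags, rank 500) and chr15:81670318-81670528 for beta (191 tags, 2 input tags, rank 573), with centres 18 bp apart. Next by alpha came chr15:81676165-81676317, with 75 tags against 92 at the beta peak and 6 input tags in both. The third by alpha and second by beta was chr15:81666088-81666240, with 49 alpha and 167 beta tags and 0 input tags. The other 4 pairs held 18 to 48 alpha and 26 to 77 beta tags.

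The pair of 49 and 167 tags was the only one of the 17 past 2-fold. Over all 13314 shared pairs the median ratio of alpha to beta tags was 0.688, and each ratio was set against this value, since the lists differ in window size and the libraries may differ in depth. On that scale the Tef pair leaned to beta by 2.34-fold (log2 -1.23, exact interval -1.72 to -0.76). Counted by unique tag positions it stayed past 2-fold (log2 -1.10). With tag density over the surrounding 10 kb, neighbouring called peaks included, it came to -0.97. By tags over input it was -1.54. Its 10 kb held many tags of both receptors, 744 for alpha (rank 186) and 975 for beta (rank 125). The neighbouring pair, whose alpha centre lay 4241 bp away, held 124 and 191 tags and stood at log2 -0.08 (-0.42 to 0.25).

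**Figure D2:**
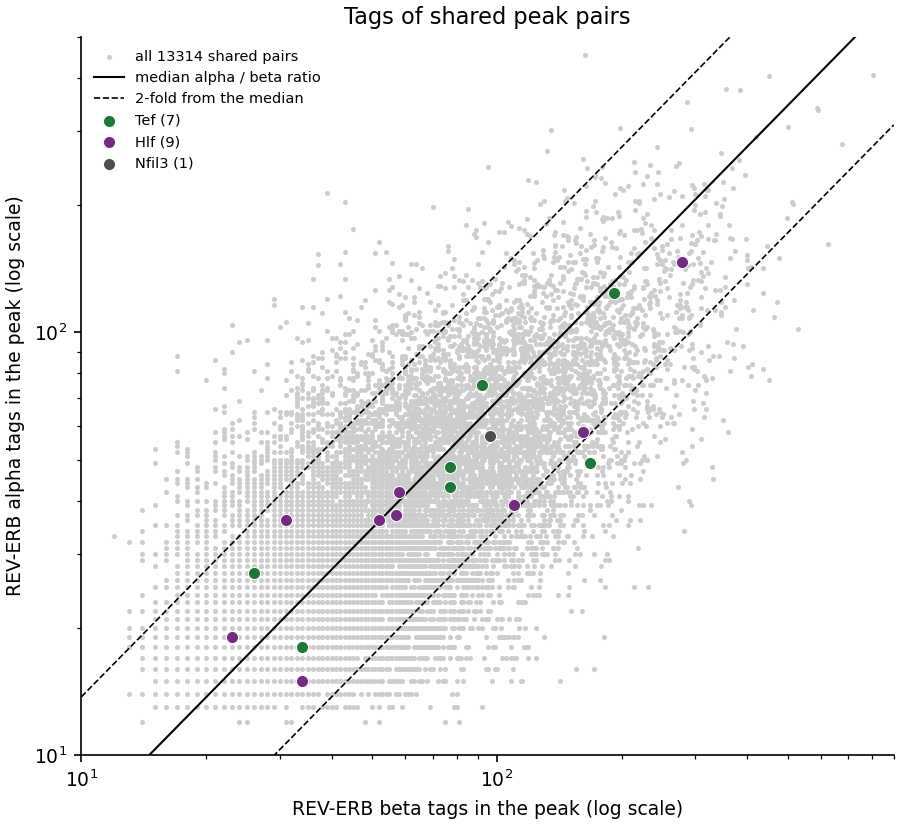
REV-ERB alpha tags against REV-ERB beta tags (both axes logarithmic) for all 13314 shared pairs in grey and the 17 member pairs in colour, with the median ratio as a solid line and 2-fold from it as dashed lines. The Tef pair of 49 and 167 tags is the only coloured point outside the dashed lines.

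Hlf (gene ID 217082), the third PAR bZIP activator, carried the tallest member peak of both lists. At chr11:90216606-90216758 the alpha list had 147 tags against 2 input tags (rank 288), and at chr11:90216562-90216772 the beta list had 278 against 3 (rank 167). It was the first of a tight group of 3 shared pairs. The second pair, chr11:90218081-90218233 for alpha, held 58 tags, and its beta partner 161. The third, chr11:90219419-90219571, held 39, and its beta partner 110. The 3 alpha centres spanned 2813 bp and the 3 beta centres 2862 bp. Each receptor had its highest count at the first and its lowest at the third. By alpha tags the third place in the window went to another pair, chr11:90203700-90203852, with 42 alpha and 58 beta tags. The remaining 5 pairs held 15 to 37 alpha and 23 to 57 beta tags.

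The 3 grouped Hlf pairs all stood on the beta side of the median ratio, within 2-fold of it. Their log2 values were -0.38 (-0.68 to -0.09), -0.93 (-1.39 to -0.49) and -0.96 (-1.52 to -0.42). They share most of their surroundings, with 635 to 642 alpha and 935 to 942 beta tags in 10 kb. Relative to those surroundings, which hold the other pairs of the group, also on the beta side, the same pairs came to 0.09, -0.49 and -0.44. By tags over input (each plus 1) they came to -0.29, 1.07 and -1.27; the second turned to the alpha side, with 0 input tags in its alpha window and 4 in its beta window. On the alpha side, a pair with 36 alpha and 31 beta tags at chr11:90204320-90204472 had the highest value of all members, log2 0.76 (0.02 to 1.5).

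Hlf also had 5 beta peaks and 2 alpha peaks without a partner, all of them modest. The unshared alpha peaks, with 14 and 35 tags, were the outermost alpha peaks of the window, the latter only 535 bp inside its end. The unshared beta peaks held 18 to 38 tags. Of these, 3 with 27, 22 and 32 tags formed a run of 2908 bp in which each was over 5000 bp from any alpha peak. Shared peaks held 89.7% of the alpha and 85.4% of the beta tags.

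Nfil3 (gene ID 18030), the D-box repressor and the member with RORE letters at its start, had few peaks. By tags, those in the alpha list lay at percentiles 31.0 to 84.0 and those in the beta list at 17.4 to 86.5. The 1 shared pair of Nfil3 was the tallest in both lists. It was chr13:53070207-53070359 for alpha, with 57 tags against 2 input tags (rank 3780), and chr13:53070260-53070470 for beta, with 96 against 4 (rank 2929). The centres lay 82 bp apart and the windows overlapped by 100 bp. The log2 ratio was -0.21 (-0.71 to 0.28). The other alpha peaks, chr13:53077405-53077557 and chr13:53081189-53081341, held 47 and 21 tags, and the other beta peaks, chr13:53051247-53051457 and chr13:53089849-53090059, held 23 and 38. These 4 were at least 7116 bp from a peak of the other list. The tallest Nfil3 peak of each list was lower than the tallest of every other member gene.

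By tags, 16 of the 17 pairs lay within 2-fold of the median ratio of all shared pairs. None was at least 2-fold higher in alpha, against 8.4% of all shared pairs, and 1 was at least 2-fold higher in beta, against 9.71%. These counts depended on the scale: they were 2 and 3 by tags over input, and 1 and 0 by density over the surroundings, where the Tef pair was no longer past 2-fold. The median log2 was -0.14 (range -1.23 to 0.76), with 11 values below 0 and 6 above. The counting interval left out the median ratio at 5 of the 17 pairs, against 39.4% of all shared pairs: the Tef pair past 2-fold, the 3 grouped Hlf pairs, and the Hlf pair on the alpha side. These intervals treat every tag as independent and compare 2 libraries. Members had a median of 1.18 alpha and 1.70 beta tags per unique position, so the intervals may be too narrow. Among shared pairs above the median height the median ratio was 0.629, and centred on it the tallest Hlf pair came to -0.25. The centres of the pairs lay 8 to 100 bp apart, with a median of 33 bp against 28 bp for all shared pairs.

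**Figure D3:**
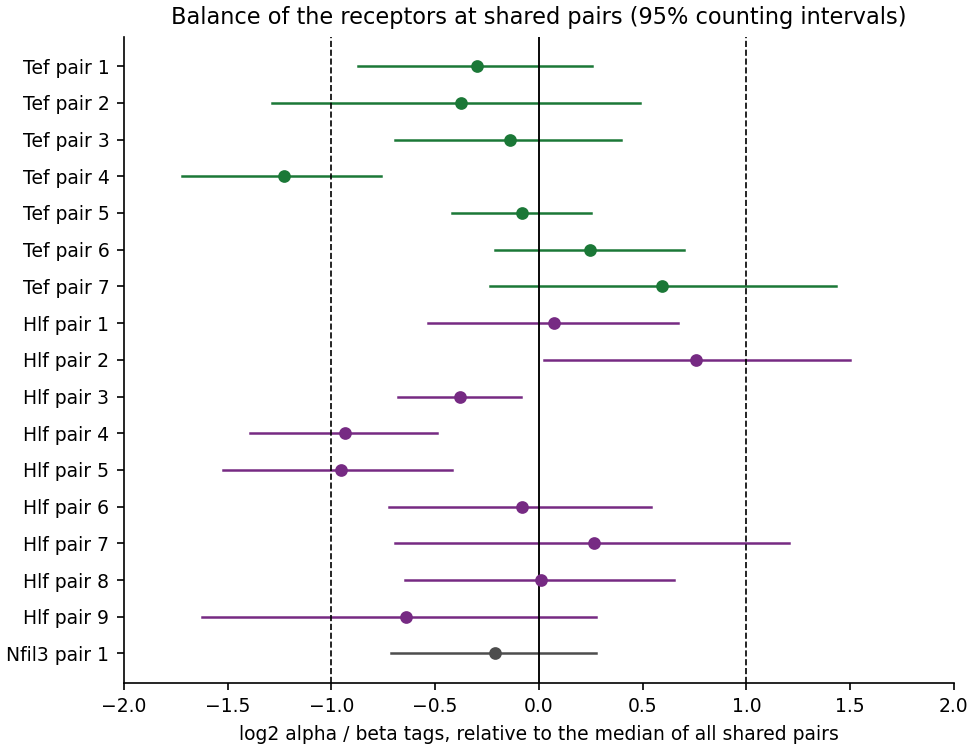
Log2 of alpha over beta tags for each of the 17 shared pairs, relative to the median of all shared pairs (solid line), in order along each window, with exact 95% counting intervals as bars and 2-fold as dashed lines. Values run from -1.23 at the fourth Tef pair to 0.76 at the second Hlf pair, and most bars cross 0.

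Many member peaks had high tag counts in the 10 kb around them. The median member stood out less from its surroundings than the median peak of its list. The 10 kb counts include the peak itself and any neighbouring called peaks, which were dense at these genes. Binding spread between the peaks was therefore not measured. The median number of tags in the 10 kb around a member was 333 for alpha, against 203 in the list, and 305.5 for beta, against 198. In the top 10% of the list by this measure were 9 of 25 alpha members, against 9.93% of all alpha peaks, and 10 of 28 beta members, against 10% of all beta peaks. Every gene contributed: Dbp 2 alpha and 3 beta peaks, Tef 2 and 3, Hlf 3 and 3, Nfil3 2 and 1. Some of these share a 10 kb area and are not separate counts. Tag density over the surroundings had a median of 8.93 at alpha members, against 11 in the list, and 9.10 at beta members, against 12.3. Below 5 times the surroundings were 6 of 25 alpha and 3 of 28 beta members, against 7.36% and 6.09% of the lists. Mean input was 2.60 tags at alpha members, against 2.66 in the list, and 3.79 at beta members, against 3.59.

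**Figure D4:**
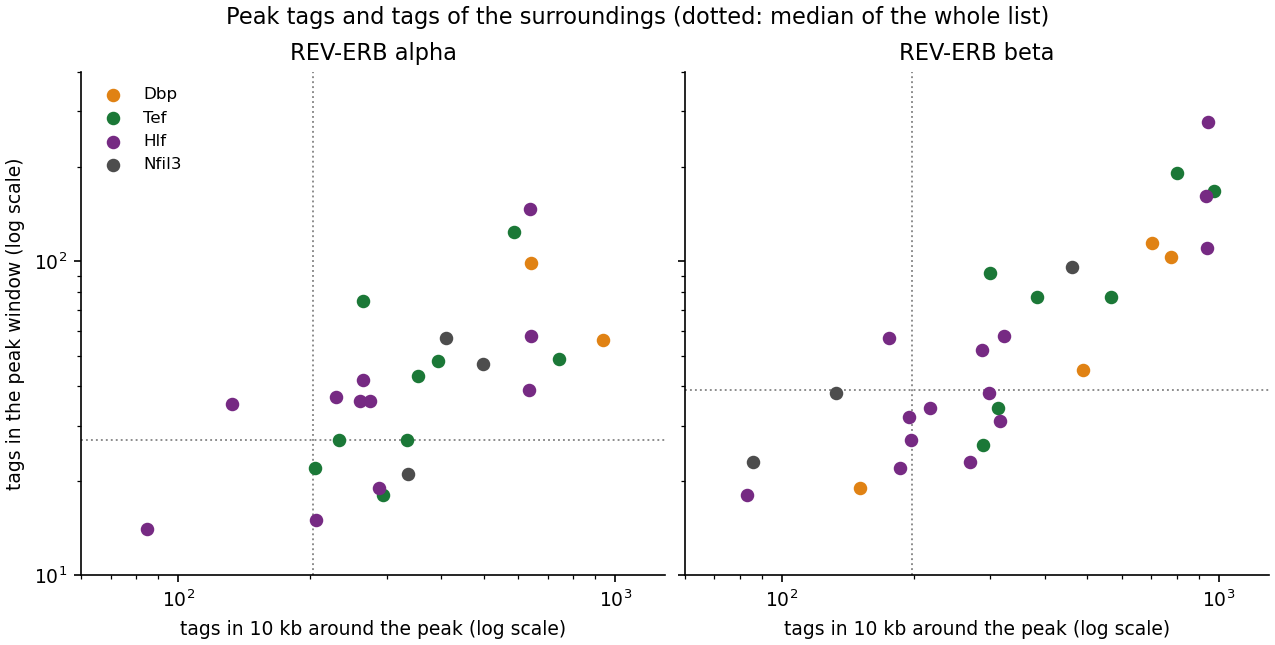
Tags in the peak window against tags in the 10 kb around the peak (both axes logarithmic), for the 25 alpha members on the left and the 28 beta members on the right, coloured by gene, with dotted lines at the medians of the whole lists. Most points lie to the right of the vertical line, up to 936 alpha and 975 beta tags.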

How the data were processed

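Peak lists of 2 ChIP-seq libraries from mouse liver, with an input library as control, were used. Per the labels' protocols, chromatin was fixed for 30 minutes with disuccinimidyl glutarate (2 mM), which links proteins to each other, and for 10 minutes with formaldehyde (1%), which links protein to DNA. The submitters' processing notes name Bowtie, HOMER and the mm9 assembly. Versions, read filters and library totals were not given in the sources used here. Per the file headers, the deposited counts are raw tags, not scaled to depth, in windows of 153 bp (alpha) and 210 bp (beta), at unique positions, in 10000 bp around the peak, and of input. The peak score deposited by the authors has a lowest value of 14 (alpha) and 12 (beta), and the deposited FDR, read as a q-value, is 0 throughout and was not used.

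Members were peaks with their centre in 1 of the 4 windows. The members and lists were chosen with earlier results of these data known. Peaks were matched to the nearest centre of the other list, and ratios were centred on the median of all shared pairs, with 2-fold in place of a test, as there is 1 library per antibody. Ranks are by tags in the window, with 1 for the most. Named in full were the 3 tallest peaks per window and list and any pair past 2-fold. Promoters were searched on both strands. The planned protein comparison was not made, since no protein sequences were used here, and motifs were not searched in the peaks, since no mm9 sequence was used here. The code for matching and ratios was run on simulated data with well-separated sites and no repeated tags. That run checked the code and did not cover close peaks or repeated tags. Python 3.11.15, numpy 2.4.6, pandas 2.3.3, scipy 1.17.1 and matplotlib 3.10.9 were used.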

Additional observations from a re-analysis of the deposited data

How the results depend on the processing

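No paired analysis was possible because there was a single library per antibody, and none could be left out. Over the 4 genes together, the number of members stayed within 1.5 times, and the shares of shared peaks within their exact intervals, under all alternatives run. Shares ranged from 56% (overlap of 50% of both peaks) to 68.0% for alpha and from 50% to 65.4% (common lowest score) for beta, and with windows widened by 20 kb there were 29 alpha and 28 beta members. With 50% overlap the Nfil3 pair and 2 of the 7 Tef pairs were no longer shared, and Nfil3 fell to 0 shared peaks in both lists. Dbp had 0 shared peaks under all 6 alternatives, none of which could pair alpha centres 603 and 879 bp from the nearest beta centre. The sum of tags over members, 1191 for alpha and 2043 for beta, became 961 and 1211 at unique positions. Less input tags, the beta sum was 1937. The median percentile of members by tags, 68.9 for alpha and 60.9 for beta, became 70.2 and 63.2 by unique positions and 65.3 and 65.5 by tags plus 1 over input tags plus 1. Pairs at least 2-fold higher in alpha and in beta, 0 and 1 by tags, were 2 and 3 by tags over input, where input is 0 to 11 tags, and 1 and 0 by density over the remaining 10 kb. The median log2 of the pairs, -0.14, ranged from -0.11 to 0.02. Of 38 recomputed values over the 4 genes together, 11 moved beyond the limit set for them. Of 156 recomputed values of single genes or pairs, 18 moved beyond their limit, such as a counting interval. Sums of tags at unique positions were among these, and they cannot exceed the sums of all tags. By tags over input, 4 pairs were newly past 2-fold (Tef -2.62, and Hlf 1.07, -1.27 and 1.01) and 5 changed side of the median ratio, the Hlf pair at 1.07 from -0.93. By density, the Tef pair was no longer past 2-fold (-0.97), 1 Hlf pair newly was (1.13), and 3 changed side. By unique positions and by centring on tall pairs, 2 changed side each and no 2-fold call changed. The cause was not tested. Library depth is unknown, so a peak missing from a list may lie just below that list's lowest score. The lowest tag density over the surroundings was 4.0 times in both lists, so a missing peak may instead lie below that value.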

Other observations

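The strongest REV-ERB site near any of the 4 windows lay outside them, 168 kb before the start of the Nfil3 window. At chr13:52861730-52861882 the alpha list had 306 tags against 3 input tags (rank 13 of 24461), and at chr13:52861713-52861923 the beta list had 500 against 4 (rank 9 of 22097). It was shared, and it was the only peak in the top 1% of either list within 250 kb outside any of the windows. It was looked up after the values were seen, and it was not assigned to a gene. Within 250 kb outside the other windows the tallest peaks held 54 alpha and 139 beta tags near Dbp, 59 and 87 near Hlf, and 29 and 31 near Tef. The Tef window ended between neighbouring alpha peaks close to the list median of 27 tags. The last inside lay 1315 bp before its end with 27 tags and overlapped a beta peak of 26 tags. The next lay 1709 bp beyond the end with 26 tags and no overlapping beta peak.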
